A study of Homo sapiens with 6 samples.

Results

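ATP-binding cassette (ABC) transporter genes were followed in the RNA of cells labelled HCT-116, an established human colorectal carcinoma line, that had been given the compound coded AAPK or its vehicle DMSO. The genes were chosen by name: every gene whose symbol starts with ABC, a subfamily letter from A to G and a digit, and that has a probe set naming no other gene. This gave 43 genes of the 18132 measured, read by 126 probe sets, and 36 of them had more than 1 probe set. There were 3 AAPK arrays and 3 DMSO arrays. The treatment field, identical for all 6 samples, reads 10 µM and 48 h, and the 10 µM is taken as the dose of AAPK. All 6 samples came from the same line grown in RPMI medium with serum, and the labels describe both groups as high in Aurora-A and PLK-1, the kinases that AAPK is described as inhibiting. The comparison asks whether the compound changed the RNA of the transporter family, drug efflux pumps above all. Values are log2 signals, every change is AAPK minus DMSO on that scale, and ± marks SD or SE as named. The labels do not say whether the samples of a group were separate cultures, so the error behind each p-value may be technical. In bulk RNA such as this, fewer cells of a type and less RNA per cell cannot be told apart.

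The cell line label was set against markers of an intestinal epithelial tumour cell. Of 10 markers, 4 had a signal at or above that of the median gene (7.10): the keratins KRT8 (12.01 in AAPK and 11.84 in DMSO cells) and KRT18 (12.52 and 12.44), the claudin CLDN4 and the transcription factor CDX1. EPCAM, the epithelial surface antigen, lay between 3.20 and 3.52 on its 3 probe sets over all 6 arrays, close to the lowest values of the table (2.83). CDH1, which encodes E-cadherin, was at 5.11 in both groups, and KRT19 at 5.02 in AAPK and 4.97 in DMSO cells. These 3 are below the signal of the median gene on AAPK and DMSO arrays alike, against the label of an epithelial colorectal line; why was not tested. A signal above the median gene is no detection call either: HBB, a globin of red blood cells, was at 8.46 in AAPK and 8.47 in DMSO cells. Of the 10 markers KRT8 passed the limma test described with the results (0.17, limma adjusted p = 0.0402), and the other 9 did not. None of 20 measured markers of fibroblasts, endothelium, blood and hepatocytes passed limma's threshold, where 15.4% of all genes did. A limma unadjusted p under 0.05 was found for 4 of the 20, and for 4861 of all 18132 genes. The arrays had median signals of 6.46 to 6.47 in AAPK and 6.48 to 6.50 in DMSO cells.

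ABC proteins bind and hydrolyse ATP in a conserved cassette, and most couple this to moving a substrate across a membrane. Members of the B, C and G subfamilies pump drugs and their conjugates out of cells and are known for multidrug resistance in tumours. A-subfamily and several G-subfamily proteins move lipids and sterols, and D-subfamily proteins serve peroxisomes and lysosomes. The E and F proteins have no membrane part and act on ribosomes.

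Of the 43 ABC genes, 4 were higher and 1 was lower in AAPK cells (limma, Benjamini-Hochberg adjusted p under 0.05 over all 18132 genes), and 38 did not pass. The share of all genes that passed was 15.4%, with 8.11% higher and 7.26% lower, so the family's share of 11.6% lies near the background. The drug exporter ABCG2 (log2 change 0.45), the peroxisomal transporter ABCD3 (0.35) and the ribosome factors ABCE1 (0.26) and ABCF1 (0.21) rose, and the lysosomal lipid transporter ABCA5 fell by 0.43. The median change was 0.01 over the ABC genes and -0.02 over all genes, and 28 of the 43 changed by less than 0.1. All 5 genes that passed had a signal at or above that of the median gene. Of the 19 ABC genes in that range 5 passed, against 24.8% of all genes there. None of the 24 dimmer ABC genes passed limma's threshold, against 5.99% of all dimmer genes. A limma unadjusted p under 0.05 was found for 4 of these 24, and for 1385 of all 9066 dimmer genes. Mean signals ran from 3.32 on the ABCA13 probe set to 9.71 on that of ABCD3, which also reflects how well each probe set binds and so does not rank the transcripts. The AAPK arrays lay above all DMSO arrays for 7 ABC genes and below them for 3, where such separation was found for 31.9% of all genes.

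**Figure D1:**
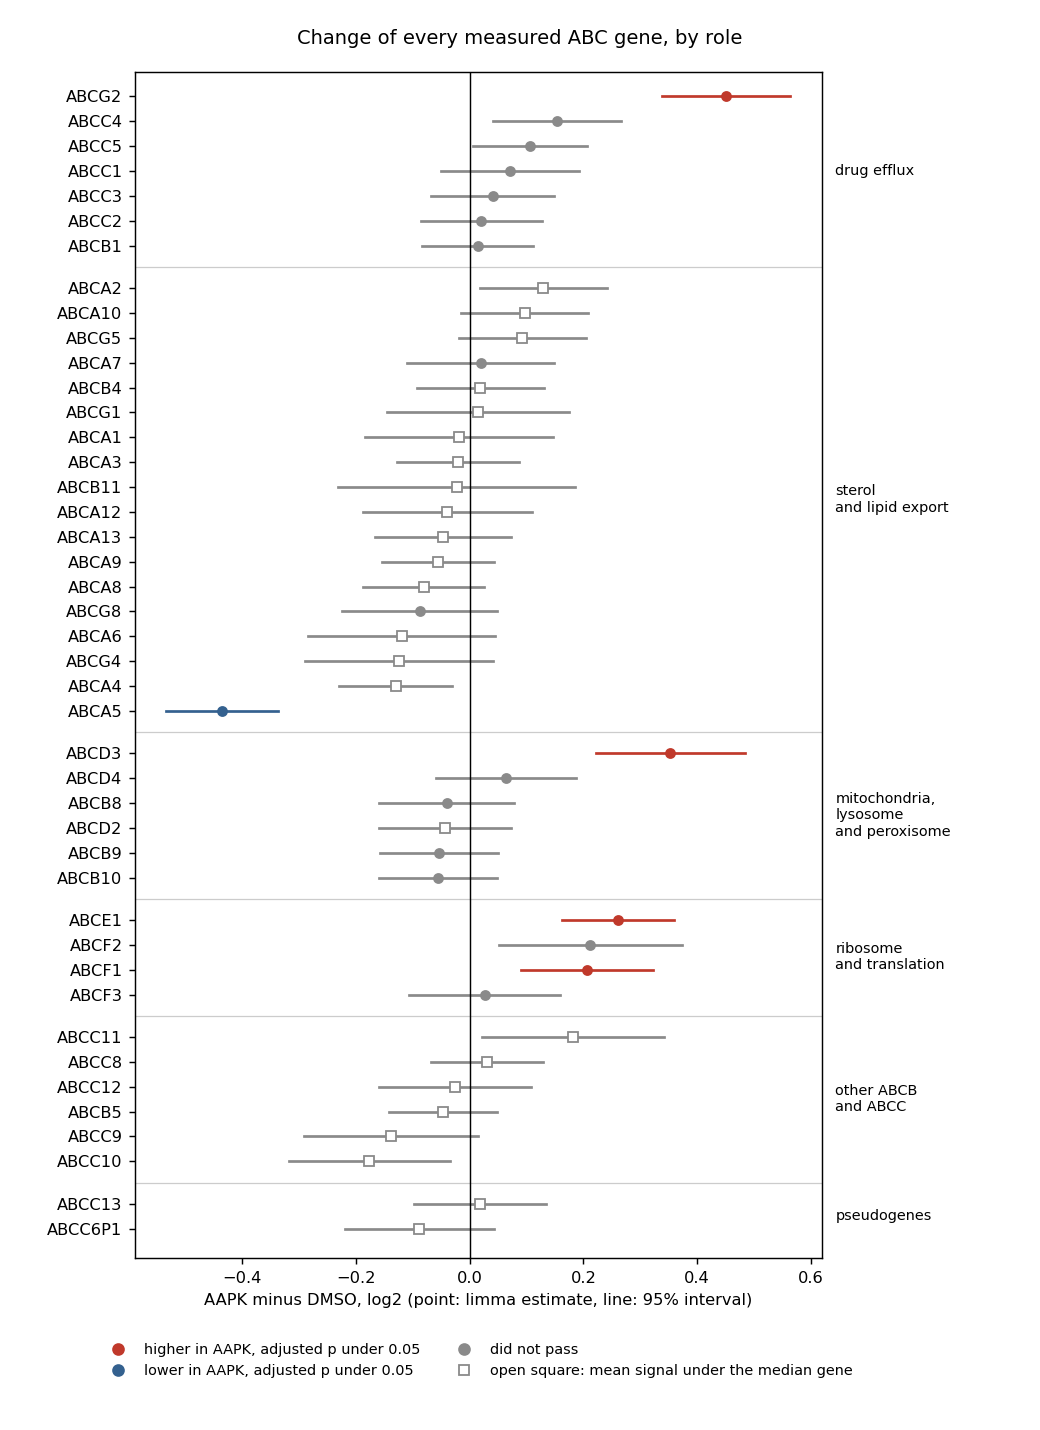
Change of each of the 43 ABC genes (horizontal axis, AAPK minus DMSO in log2 units, limma estimate with 95% interval), grouped by role; open squares mark genes dimmer than the median gene. ABCG2, ABCD3, ABCE1 and ABCF1 lie to the right of 0 and ABCA5 to the left, and most others lie within 0.1 of 0.

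The promoters of the 5 genes that passed are shown because the calls in the family are theirs. Each window runs from 250 bases before to 50 after a transcription start (RefSeq, GRCh38.p14), written 5′ to 3′ on the gene's strand. Capitals mark matches, on either strand, to any of 7 motifs: GGGCGG (GC box), CCAAT, the E-box CACGTG, the xenobiotic response core GCGTG bound by the aryl hydrocarbon receptor, the hypoxia response core ACGTG, the antioxidant response core TGACNNNGC and the CEBP-ATF response core TGATGNAA. Every CACGTG also counts as ACGTG on both strands. ABCG2 has 5 starts in the table, and the first window with the most matches was printed, chr4:88158810-88159109 on the minus strand. ABCA5 lies at chr17:69327084-69327383 (minus), ABCD3 at chr1:94418139-94418438 (plus), ABCE1 at chr4:145098061-145098360 (plus) and ABCF1 at chr6:30571192-30571491 (plus).
ABCG2: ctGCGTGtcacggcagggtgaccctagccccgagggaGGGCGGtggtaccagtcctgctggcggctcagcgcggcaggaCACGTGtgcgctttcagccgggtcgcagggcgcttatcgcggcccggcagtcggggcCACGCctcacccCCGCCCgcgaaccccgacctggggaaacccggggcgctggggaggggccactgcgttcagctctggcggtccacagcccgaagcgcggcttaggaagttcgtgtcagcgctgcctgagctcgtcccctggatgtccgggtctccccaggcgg
ABCD3: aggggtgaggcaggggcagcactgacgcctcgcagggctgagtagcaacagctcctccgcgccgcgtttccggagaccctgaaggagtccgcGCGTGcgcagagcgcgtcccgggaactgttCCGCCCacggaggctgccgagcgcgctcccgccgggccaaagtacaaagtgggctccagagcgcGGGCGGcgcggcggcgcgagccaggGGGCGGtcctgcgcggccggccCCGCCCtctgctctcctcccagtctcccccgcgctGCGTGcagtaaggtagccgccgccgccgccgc
ABCE1: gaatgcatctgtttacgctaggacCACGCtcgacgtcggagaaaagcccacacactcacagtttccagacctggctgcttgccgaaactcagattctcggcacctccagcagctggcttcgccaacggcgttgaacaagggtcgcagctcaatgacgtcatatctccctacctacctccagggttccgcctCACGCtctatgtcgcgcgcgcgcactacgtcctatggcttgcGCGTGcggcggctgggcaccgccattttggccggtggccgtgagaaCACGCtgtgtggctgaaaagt
ABCF1: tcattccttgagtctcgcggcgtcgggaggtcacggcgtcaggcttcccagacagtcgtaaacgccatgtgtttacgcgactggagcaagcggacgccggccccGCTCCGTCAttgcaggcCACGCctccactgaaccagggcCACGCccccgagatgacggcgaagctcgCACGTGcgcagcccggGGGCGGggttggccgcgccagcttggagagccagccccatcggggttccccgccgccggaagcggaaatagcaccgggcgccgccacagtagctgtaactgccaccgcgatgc
ABCA5: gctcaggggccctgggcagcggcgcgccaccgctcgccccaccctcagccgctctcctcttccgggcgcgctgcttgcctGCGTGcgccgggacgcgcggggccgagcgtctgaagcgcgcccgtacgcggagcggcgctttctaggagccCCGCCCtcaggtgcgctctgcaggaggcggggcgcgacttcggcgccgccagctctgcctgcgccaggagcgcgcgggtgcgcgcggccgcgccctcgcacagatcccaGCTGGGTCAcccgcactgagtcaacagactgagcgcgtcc

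The other 4 genes have 1 window each in the table. In these, GCGTG occurred 4 times for ABCE1, 2 times each for ABCD3 and ABCF1, and 1 time for ABCA5. The GC box had 4 matches for ABCD3, 1 each for ABCF1 and ABCA5 and 0 for ABCE1. CACGTG was found in the window of ABCF1, and TGACNNNGC in those of ABCF1 and ABCA5. The ABCG2 window held 2 GCGTG, 2 GC boxes and 1 CACGTG, but it was picked for its matches and is not counted with the others. These letters are common. Of the 50 windows of the 33 ABC genes in the table, 23 held GCGTG, against 36.5% of all 35116 windows. GGGCGG was in 24 of the 50, against 15786 of all windows, TGACNNNGC in 11, against 13.3%, and CACGTG in 8, against 7.26%. ACGTG was in 13 of the 50, against 21.4% of all. Neither CCAAT (11 of the 50 and 34.6% of all windows) nor TGATGNAA (3 of the 50 and 3.62%) occurred in the 5 printed. The GC content of the 4 single windows ran from 59.7% for ABCE1 to 76.3% for ABCA5. The median was 58.7% over all windows and 60.7% over the 50 ABC windows. The 5 windows of ABCG2 ran from 40.3% to 72.3%, the last being the one printed.

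Of the 7 drug efflux members, 1 rose, 0 fell and 6 did not pass (14.3% called), and of the 36 other ABC genes 3 rose and 1 fell (11.1% called). Both shares are near or under the 15.4% of all genes, and all 7 efflux members had a signal at or above that of the median gene, where 24.8% of all genes passed. Of the 36 others 12 had such a signal, so the sets differed in signal level. All 7 efflux members had a positive change, with a median of 0.07, against 15 of the 36 others, with a median of -0.02. A positive change was found for 7733 of all 18132 genes, and for 4340 of the 9066 at or above the median signal. Of the 19 ABC genes at or above that signal, the efflux members included, 14 had a positive change. The other ABC genes in that range had a median of 0.023. The count of 7 did not hold under every setting: ABCB1 was at -0.016 with quantile normalisation, and ABCC2 at -0.0042 without AAPK replicate 2 and at -0.0013 without DMSO replicate 3. ABCG2, the breast cancer resistance protein, which pairs with itself to export chemotherapeutics and urate, had log2 signals of 8.54, 8.57 and 8.56 in AAPK cells, against 8.19, 8.03 and 8.10 in DMSO cells. The groups did not overlap, and the DMSO arrays were the more scattered. The rise was 1.37-fold (0.45 ± 0.05 SE, n = 3 per group, limma adjusted p = 2.46e-04). The other ABCG2 probe set gave 7.49, 7.51 and 7.54 in AAPK cells, against 7.51, 7.48 and 7.45 in DMSO cells. There the groups overlapped, and the change was 0.03 (limma adjusted p = 0.758 in the fit of all probe sets). The rise of ABCG2 thus stands on 1 of its 2 probe sets.

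ABCC4, the multidrug resistance protein MRP4, which exports cyclic nucleotides and nucleotide drugs, gave 9.39, 9.32 and 9.32 in AAPK cells, against 9.22, 9.11 and 9.24 in DMSO cells. Every AAPK array lay above every DMSO array, yet the change of 0.15 ± 0.05 did not pass (limma adjusted p = 0.0698). On the 3 remaining ABCC4 probe sets the changes were 0.11, 0.12 and 0.35, and the last, the dimmest of the 4, passed in the fit of all probe sets (5.14, 5.16 and 4.89 in AAPK, against 4.59, 4.76 and 4.78 in DMSO cells). ABCC4 passed under 7 of 16 alternative settings. ABCC5, its close relative MRP5, gave 8.62, 8.69 and 8.65 in AAPK cells, against 8.52, 8.53 and 8.60 in DMSO cells. These groups did not overlap either, and the change of 0.11 ± 0.05 did not pass (limma adjusted p = 0.165). Its other probe sets ran from -0.12 to 0.23.

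ABCC3, the basolateral exporter MRP3 of glucuronides and bile salts, was split between its probe sets. The brighter gave 7.36, 7.28 and 7.27 in AAPK cells, against 7.21, 7.31 and 7.27 in DMSO cells. The groups overlapped there, with a change of 0.04 ± 0.05 that did not pass (limma adjusted p = 0.664). The dimmer gave 6.10, 5.96 and 6.06 in AAPK cells, against 5.58, 5.66 and 5.59 in DMSO cells. On that probe set all AAPK arrays were higher, by 0.43 ± 0.05, and the change passed among all probe sets, of which 12.9% did. With the mean of both probe sets ABCC3 was at 0.23 (limma adjusted p = 0.00421).

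**Figure D2:**
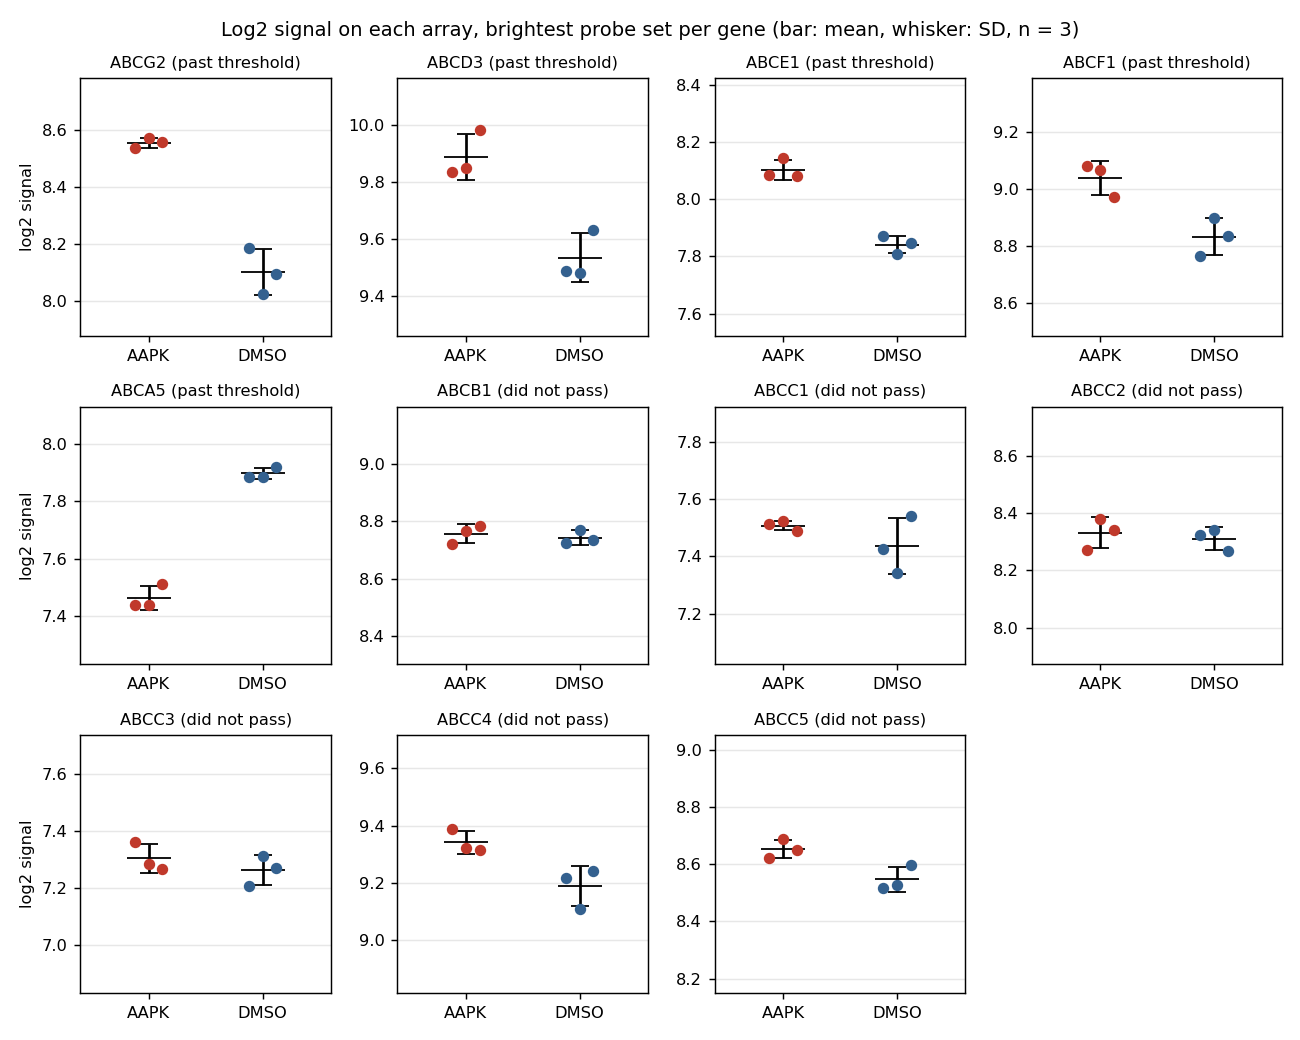
Log2 signal (vertical axis, the same span of 0.9 units in every panel) on each AAPK and DMSO array for the 5 ABC genes past the threshold and the other 6 drug efflux members; horizontal bars are means and whiskers SD, n = 3. The groups are apart in the 5 genes that passed, and also in ABCC4 and ABCC5, whose difference is smaller.

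For the remaining efflux members the 95% intervals refer to the brightest probe set alone and do not bound the change of the gene. ABCB1, P-glycoprotein, the broad drug exporter, gave 8.72, 8.77 and 8.78 in AAPK cells, against 8.72, 8.77 and 8.73 in DMSO cells. The arrays of both groups intermingled, and the 95% interval of the change ran from -0.08 to 0.11 (limma adjusted p = 0.885). Changes on its remaining 3 probe sets lay between -0.08 and 0.11, and none passed (limma, 0 with an unadjusted p under 0.05). ABCC1, MRP1, which exports glutathione conjugates, gave 7.51, 7.52 and 7.49 in AAPK cells, against 7.43, 7.34 and 7.54 in DMSO cells. DMSO replicate 3 exceeded all AAPK arrays, and the interval ran from -0.05 to 0.19 (limma adjusted p = 0.469). ABCC2, MRP2, the exporter of conjugates at the apical membrane, gave 8.27, 8.38 and 8.34 in AAPK cells, against 8.32, 8.34 and 8.27 in DMSO cells. Its groups overlapped too, with an interval from -0.09 to 0.13 (limma adjusted p = 0.842).

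The ribosome-bound members had a median change of 0.21. Of 4 genes 2 rose, 0 fell and 2 did not pass, where 15.4% of all genes passed. All 4 had a signal at or above that of the median gene, where 24.8% of all genes passed. ABCE1, an iron-sulphur ATPase that splits ribosomes after termination, gave 8.08, 8.14 and 8.08 in AAPK cells, against 7.87, 7.81 and 7.84 in DMSO cells. The groups were well apart, with a 1.20-fold rise (0.26 ± 0.04 SE, limma adjusted p = 0.00284). All 5 of its probe sets rose when each was fitted, by 0.21 to 0.45. ABCF1, which binds the initiation factor eIF2, gave 9.08, 9.07 and 8.97 in AAPK cells, against 8.77, 8.90 and 8.83 in DMSO cells. Its rise was 1.15-fold (0.21 ± 0.05, limma adjusted p = 0.0225), and its other probe set was at 0.24 and also passed. Of the 5 calls only that of ABCF1 was lost under any of the 16 settings tried, namely under 6, with limma adjusted p up to 0.0994.

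ABCF2, a cytosolic paralog, had nearly the same change as ABCF1, 0.21, on more scattered arrays. It gave 8.14, 8.22 and 7.91 in AAPK cells, against 7.87, 7.92 and 7.86 in DMSO cells. AAPK replicate 3 fell within the DMSO range, and the change did not pass (limma adjusted p = 0.0787). ABCF2 passed without that array, and also with all arrays kept under an intensity trend, array weights or a filter at the median signal. Its 3 other probe sets were at 0.14 to 0.19. ABCF3 averaged 8.48 ± 0.11 in AAPK and 8.46 ± 0.03 in DMSO cells (SD, n = 3) and did not pass. RefSeq lists pseudogene copies of ABCE1 and ABCF2, and signal shared with them was not tested.

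Among 6 measured transporters of mitochondria, lysosomes and peroxisomes, 1 rose (16.7% called, against 15.4% of all genes). This was ABCD3, the peroxisomal membrane protein PMP70, which imports branched and long-chain acyl-CoA and bile acid precursors. It gave 9.84, 9.85 and 9.98 in AAPK cells, against 9.49, 9.48 and 9.63 in DMSO cells. The groups did not overlap, and replicate 3 was the highest in each (1.28-fold, 0.35 ± 0.06 SE, limma adjusted p = 0.00254). On its second probe set, at 8.999, 8.963 and 9.008 in AAPK cells, against 8.497, 8.480 and 8.486 in DMSO cells, the rise was larger, 0.50. The 3 dimmer ones were at 0.46, 0.34 and 0.09, and the first of these passed. The other 5 genes of the group lay between -0.06 and 0.06: ABCD2 of peroxisomes, ABCD4, which takes part in lysosomal cobalamin export, ABCB8 and ABCB10 of the inner mitochondrial membrane and the lysosomal peptide transporter ABCB9.

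Of 18 genes grouped under sterol and lipid transport 0 rose, 1 fell and 17 did not pass, with a median of -0.03. This is 5.56% called, against 15.4% of all genes and 5.99% of those under the median signal, where most of the 18 lay. ABCA5, which sits in lysosomes and late endosomes and moves lipids, gave 7.44, 7.44 and 7.51 in AAPK cells, against 7.88, 7.89 and 7.92 in DMSO cells. The groups were far apart relative to their spread, and signal was 1.35-fold lower (-0.43 ± 0.04 SE, limma adjusted p = 1.40e-04). Its second probe set gave 6.39, 6.35 and 6.41 in AAPK cells, against 6.70, 6.68 and 6.72 in DMSO cells, and fell by 0.31. The third, near the bottom of the scale at 3.52 in AAPK and 3.63 in DMSO cells, had a change of -0.10 that did not pass. The other 17 ran from -0.13 for ABCA4, the retinal lipid transporter, to 0.13 for ABCA2, an endolysosomal transporter, and only 2 of them had the signal of the median gene or more, ABCA7 and ABCG8. ABCA1 and ABCG1, the main cholesterol exporters, were at -0.02 and 0.01. ABCB4, a phospholipid transporter close in sequence to ABCB1, was at 0.02 on its brighter probe set. On the dimmer one the change was -0.18 and passed (4.003, 4.011 and 3.997 in AAPK, against 4.194, 4.134 and 4.225 in DMSO cells), at signals near the bottom of the scale.

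Of 6 other B and C members, none passed limma's threshold and 2 had an unadjusted p under 0.05, as did 4861 of all 18132 genes. The 2 were ABCC11, at 0.18 (limma adjusted p = 0.133), and ABCC10, at -0.18 (limma adjusted p = 0.0977). ABCC10 passed with array weights and without AAPK replicate 3, and ABCC11 without AAPK replicate 1. The other ABCC11 probe set was at -0.05 and did not pass. The pseudogenes ABCC13 and ABCC6P1 were at 0.02 and -0.09 and did not pass.

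**Figure D3:**
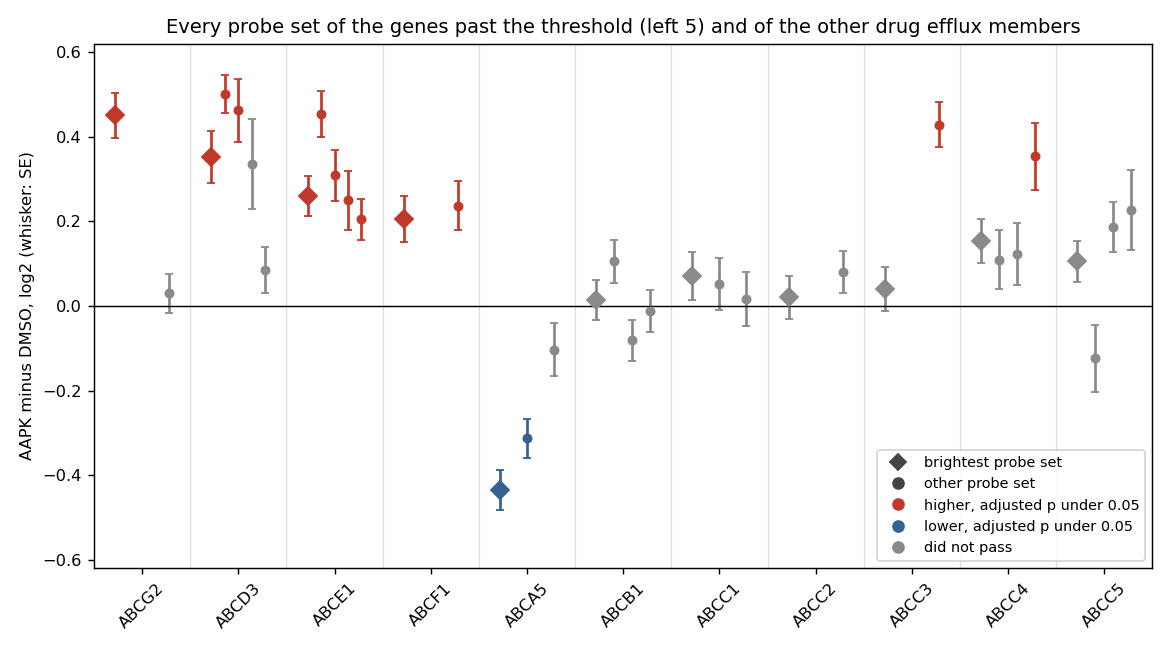
Change on every probe set (vertical axis, AAPK minus DMSO in log2 units, whisker SE from the fit of all probe sets) of the 5 ABC genes past the threshold and the other 6 drug efflux members, from brightest to dimmest within a gene. The 5 ABCE1 probe sets all lie above 0, whereas those of ABCG2 and ABCC3 are split between a rise of over 0.4 and a value near 0.

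Over all 126 ABC probe sets, 13 passed upward and 3 downward when each was fitted separately, where 12.9% of all probe sets passed. Of the 83 that were not the brightest of their gene, 9 passed upward and 2 downward, and 55 had the sign of the brightest. Those 16 calls fell in 8 genes: the 5 that passed by their brightest probe set, and ABCC3, ABCC4 and ABCB4 on a dimmer one.

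Partners of these genes were read from lists made by role, and are described by counts. Their counts stand beside the 15.4% of all genes that passed, 8.11% higher and 7.26% lower. Among genes at or above the median signal 24.8% passed, against 5.99% of dimmer ones, and the lists were not split by signal. A limma unadjusted p under 0.05 was found for 4861 of all 18132 genes. Of 17 measured transcriptional regulators of ABC genes 0 rose and 4 fell (23.5% called), with a median of -0.08. NFE2L2, which encodes NRF2, an activator of ABCC and detoxification genes, averaged 9.53 in AAPK and 9.98 in DMSO cells, a fall of 0.44 (limma adjusted p = 4.01e-04). SP1, the factor of GC boxes, averaged 8.39 and 8.79, a fall of 0.40 (limma adjusted p = 2.62e-04). Of 34 drug-metabolising and conjugating enzymes 5 rose and 0 fell, with a median of 0.04, and this share of 14.7% is close to that of all genes. MGST2, a microsomal glutathione transferase, rose by 0.42 (9.30 in AAPK and 8.88 in DMSO cells, limma adjusted p = 8.36e-04), and NQO1, the quinone reductase, by 0.33.

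Drug uptake and extrusion outside the ABC family was read from 27 genes, most of them carriers. Of these 2 rose and 0 fell (7.41% called, against 15.4% of all genes), with a median of -0.00047. SLCO4A1, an organic anion transporter, averaged 8.63 in AAPK and 8.27 in DMSO cells and rose by 0.36 (limma adjusted p = 0.00162), with 0.06 on its other probe set. ATP7B, a copper pump, rose by 0.18 on its brightest probe set and was at 0.02 and -0.12 on the others. Of 17 partners of ABCE1 and ABCF1 in ribosome recycling and translation 6 rose and 3 fell, with a median of 0.06. This is 52.9% called, against 15.4% of all genes and 24.8% of those at or above the median signal. GSPT1, the release factor eRF3, rose by 0.45 (9.77 in AAPK and 9.32 in DMSO cells, limma adjusted p = 1.46e-04). Among the 4 dimmer GSPT1 probe sets 3 rose and 1 was at -0.07. MCTS1, which helps to recycle the small subunit, rose by 0.43, with 0.14, 0.03 and -0.02 on its dimmer probe sets.

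Of 11 peroxisome partners of the D subfamily 2 rose and 0 fell, a share of 18.2% that is close to the 15.4% of all genes. ACSL1, which makes acyl-CoA, rose by 0.30 (limma adjusted p = 0.00212), with 0.05 on its other probe set. PEX3, a membrane assembly factor, rose by 0.18 (limma adjusted p = 0.0454). The dimmer PEX3 probe sets were at 0.06, 0.19 and 0.10. In the fit of all probe sets the one at 0.19 passed, and the brightest did not (limma adjusted p = 0.0609). Among 13 partners of sterol export none passed limma's threshold, and 1 had an unadjusted p under 0.05. TAP1, TAP2 and CFTR, family members whose symbols do not start with ABC, were at 0.00, -0.07 and -0.09 and did not pass (0 had an unadjusted p under 0.05). None of 10 genes of peptide transport and antigen presentation, TAP1 and TAP2 among them, passed either, with 2 at an unadjusted p under 0.05.

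**Figure D4:**
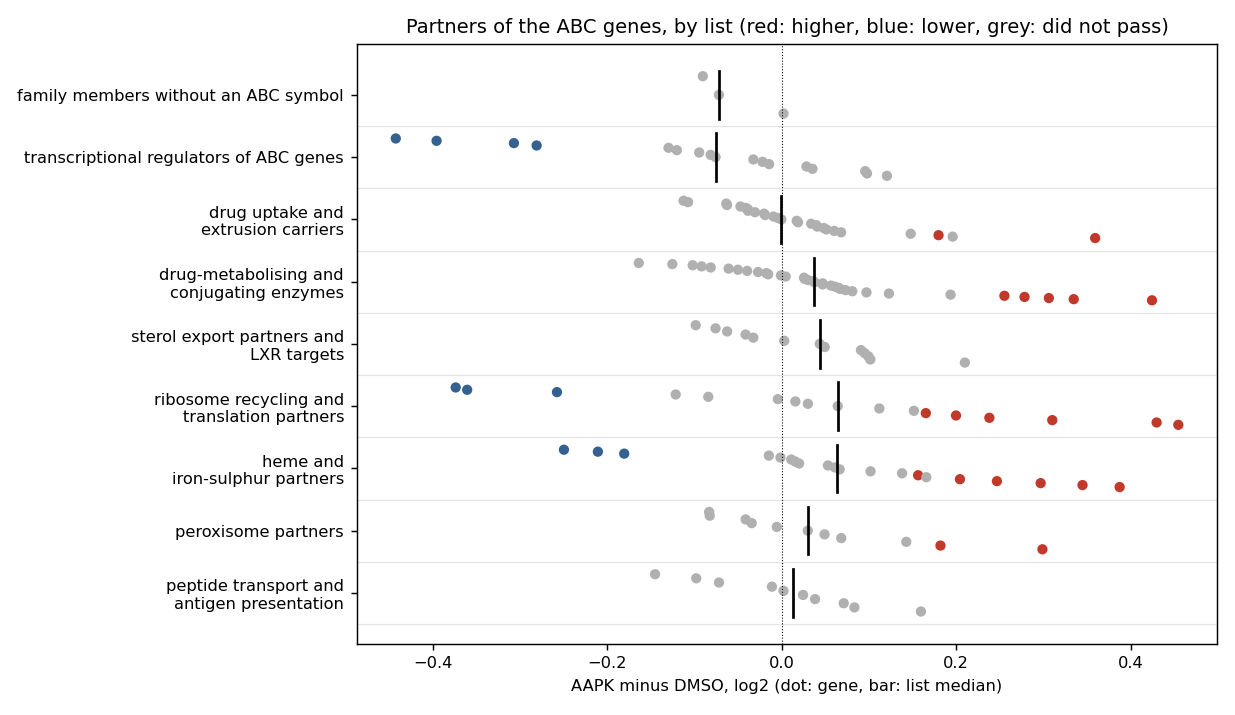
Changes (horizontal axis, AAPK minus DMSO in log2 units) of the genes in 9 lists of ABC family relatives and partners; each dot is a gene, coloured where it passed limma's threshold, and bars mark list medians. Regulators that passed lie to the left of 0, and enzymes and carriers that passed lie to the right.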

How the data were processed

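RNA was extracted with Trizol, labelled with biotin (in vitro transcription) and read on 6 arrays, per the labels' protocols. The deposited table gives log2 signals of 49395 probe sets; none is missing. That they are log2 was judged from their range (2.83 to 14.25). Array quartiles are nearly equal, so the authors' deposited log2 values had been normalised between arrays, which removes a change shared by most genes; how is not given in the sources used here.

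In the platform's annotation, 44988 probe sets named 1 gene, and all 43 ABC genes matched RefSeq (GRCh38.p14) by Entrez identifier. Each gene's brightest probe set (mean over 6 arrays) was tested between AAPK and DMSO with limma 3.58.1 under R 4.3.3, using lmFit and eBayes without covariates. P-values were two-sided and adjusted by Benjamini-Hochberg across 18132 genes; adjusted p under 0.05 passed. All 44988 probe sets were fitted likewise. Precision is limited by 3 arrays per group.

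Statistics are given for ABC genes past the threshold and for the drug efflux members, and up to 2 genes with the largest passing change are named per partner list. ABCF2, ABCF3, and ABC genes named for a dimmer probe set, their role or the end of a range, were chosen after their values were seen. Members and lists were chosen with earlier results of these data known. There were 16 alternatives: other normalisations, signal filters, probe set choices, variance models, a replicate block and leaving out each array.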

Additional observations from a re-analysis of the deposited data

How the results depend on the processing

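ABCG2, ABCD3, ABCE1 and ABCA5 kept their direction and passed under all 16 alternatives. Their changes were 0.24 to 0.49, 0.29 to 0.50, 0.24 to 0.45 and -0.46 to -0.28, in that order. For ABCG2 no alternative took its second probe set, at 0.03, on its own. ABCF1 kept its direction but did not pass with quantile normalisation (0.16, adjusted p = 0.0636), with the replicate block (adjusted p = 0.0510), or without AAPK replicate 1 or 2 or DMSO replicate 1 or 3 (adjusted p of 0.0892, 0.0777, 0.0994 and 0.0552); the cause was not tested. ABCC4 passed with median centring, both signal filters, the mean of probe sets, the largest-SD probe set, an intensity trend and array weights, and ABCC3 with the mean of probe sets and the largest-SD probe set (0.43). ABCB1 turned to -0.016 with quantile normalisation, and ABCC2 to -0.0042 and -0.0013 without AAPK replicate 2 or DMSO replicate 3 (-0.0042 to 0.050 with 1 array left out); neither passed under any of the 16 settings. With array weights 8 ABC genes passed, 2 of them lower (ABCC10, ABCC4 and ABCF2 joined); without AAPK replicate 3, 7 did (ABCC10 and ABCF2 joined). Without AAPK replicate 1 ABCC11 passed. Leaving out 1 array gave 4 to 7 ABC genes, 3 to 5 higher and 1 to 2 lower.

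The ABC median was 0.00080 with quantile normalisation, 0.036 with median centring, 0.041 with only genes above the median signal, -0.011 with the mean of probe sets, -0.022 on the largest-SD probe sets and 0.0019 with array weights, and -0.031 to 0.019 with 1 array left out. The efflux median was 0.093 with median centring, 0.099 with the mean of probe sets and 0.23 on the largest-SD probe sets, and 0.064 to 0.12 with 1 array left out. The other ABC genes' median was 0.023 with only genes above the median signal, and -0.040 to -0.0041 with 1 array left out. Deviations of same-numbered arrays of the groups were not positively correlated (correlations of -0.02, -0.23 and -0.05). With so few arrays per group, this cannot decide whether same-numbered arrays were handled together. The replicate block gave 4 ABC genes and 2099 genes in all, against 5 and 2788 without it.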

Other observations

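Genes of heme and iron-sulphur cluster synthesis, which work beside the mitochondrial B-subfamily transporters, moved both ways. Of 20 measured, 6 rose and 3 fell, with a median of 0.06. That is 9 of 20 called, against 15.4% of all genes and 24.8% of those at or above the median signal. The list was not split by signal. GLRX5, a mitochondrial glutaredoxin that hands on iron-sulphur clusters, averaged 9.13 in AAPK and 8.74 in DMSO cells and rose by 0.39 (limma adjusted p = 6.54e-04), with 0.44 and 0.43 on its other probe sets. ALAD, an enzyme of heme synthesis, rose by 0.34 (6.95 in AAPK and 6.60 in DMSO cells, limma adjusted p = 0.00366), with 0.05 on its other probe set.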
